A study of Mus musculus with 12 samples.

Results

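The tenascins and thrombospondins form a pair of families of secreted matrix glycoproteins, and 8 of their genes were followed here along the mouse cochlea: the tenascins Tnc, Tnr, Tnn and Tnxb, and the thrombospondins Thbs1, Thbs2, Thbs3 and Thbs4. The members were the non-control probes of the array whose gene name was one of these symbols, 181 of the 165984 probes and 8 of the 19506 gene names. Tnc was chosen by its high measured signal on the apical arrays, so its values against the apical turn are given below as a description with no test. The arrays compared RNA of the apical, middle and basal turns, cut from the cochleae of 4 male C57BL/6 mice aged 6 weeks that carried no mutation or treatment named in the labels. Each turn was represented by 4 single-color exon arrays, each labeled from 25 ng of total RNA, and the question was how gene expression changes along the axis on which sound frequency is mapped. The RNA was that of whole turns, so sensory, neural and lateral wall cells were read as a mixture. In such bulk tissue, fewer cells of a type and less RNA per cell cannot be told apart. The study describes the arrays of a turn as coming from separate mice, but the labels do not say which mouse gave which array, so arrays of different turns could not be matched by mouse. The 3 turns lay on 3 different slides, so slide and turn cannot be told apart in any comparison below.

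Tenascins and thrombospondins are called matricellular proteins, because they modulate how cells attach to and signal through the extracellular matrix more than they build it. They bind integrins, other cell surface receptors, fibronectin and proteoglycans, and thrombospondin 1 can activate latent TGF-beta. In the cochlea, tenascin C is known from the basilar membrane, the sheet whose stiffness falls from base to apex, and variants of the human TNC gene have been linked to inherited hearing loss.

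The array reads each gene with 60-base probes spread over its exons, so a change can be followed probe by probe from the 5′ to the 3′ end. The sequences of 5 probes are shown because the results below turn on them, with positions on mm9, all on the minus strand and all between the first and the last probe of the gene. The first pair lies side by side in Tnc and contrasts a probe above background on the apical arrays alone with one above background on all 12 arrays. The next pair lies in Thbs4, where the second reads toward the 3′ end and differed between turns while the first did not. The last is the brightest probe of Thbs2.
Tnc probe A_56_P008508, chr4:63674963-63675022: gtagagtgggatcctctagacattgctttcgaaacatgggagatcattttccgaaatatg
Tnc probe A_56_P008509, chr4:63674108-63674167: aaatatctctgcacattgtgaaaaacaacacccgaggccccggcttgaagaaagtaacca
Thbs4 probe A_56_P096558, chr13:93544636-93544695: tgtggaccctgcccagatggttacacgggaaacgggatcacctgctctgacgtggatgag
Thbs4 probe A_56_P096569, chr13:93524334-93524393: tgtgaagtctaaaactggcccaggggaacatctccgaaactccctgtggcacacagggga
Thbs2 probe A_56_P106111, chr17:14818672-14818731: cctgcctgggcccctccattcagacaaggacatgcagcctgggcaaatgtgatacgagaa

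Signals below are fluorescence intensities after each array was scaled to a common 75th percentile, and differences are on the log2 scale between the means of 4 arrays. Before scaling, that percentile lay between 534.0 and 721.6, and the scanner software scored 77.4% to 81.4% of an array's spots as well above background. This share was 80.1% to 81.2% on apical arrays, 78.3% to 79.1% on basal arrays, 77.4% to 77.7% on middle arrays 1, 2 and 4, and 81.4% on middle array 3. The lowest scaled signal so scored was 34.3 to 35.8 on middle arrays 1, 2 and 4 and 24.7 to 28.8 on the others. Counts of probes above background are thus not fully comparable between turns. A difference is called changed when its adjusted p, from limma with Benjamini-Hochberg adjustment over 19505 genes, was below 0.05. Markers of the cell types in the tissue moved with the turns. All 6 hair cell markers and 5 of 6 spiral ganglion neuron markers were higher in the apical than in the basal turn, and 1 neuron marker, Prph, was lower. Of 5 markers of spiral ligament fibrocytes, 4 were lower in the apical turn and 1, Otor, was higher. The summed hair cell signal ran from 13021 to 17227 on apical arrays, from 9851 to 11553 on middle arrays and from 2879 to 5260 on basal arrays. Most of this sum was the signal of 1 marker, Ocm, which ran from 12004 to 15992, from 9011 to 10651 and from 2488 to 4765 in the same order. No marker of the 14 cell type lists had all of its probes below background. The part of cell composition in the results below was not tested.

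Among the 7 members tested, 3 differed between apical and basal turns (42.9%), against 39.2% of all genes tested, so the share lay close to that of the array as a whole. Tnr and Thbs2 were higher in the apical turn, as were 17.6% of all genes, and Thbs4 was higher in the basal turn, as were 21.6%. Tnxb, Tnn, Thbs1 and Thbs3 did not pass the test. None of the 3 called differences reached 2-fold, which 4.47% of all genes did, 3.32% higher in the apical and 1.15% higher in the basal turn. Between apical and middle turns 0 of 7 tested members passed in limma, although 2 of 7 had an unadjusted p below 0.05. Of all genes 12% passed there, 4.42% higher in the apical and 7.61% higher in the middle turn. Between middle and basal turns 1 of 8 members passed, Thbs4, which was higher in the basal turn, against 20.9% of all genes, 11.6% higher in the middle and 9.23% higher in the basal turn. No member reached 2-fold there, as 2.66% of all genes did (2.21% higher in the middle turn). The arrays of apical and basal turns did not overlap for 3 of the 7 tested members, against 38.3% of all genes, and those of middle and basal turns for 2 of 8 members, against 24.1%.

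**Figure D1:**
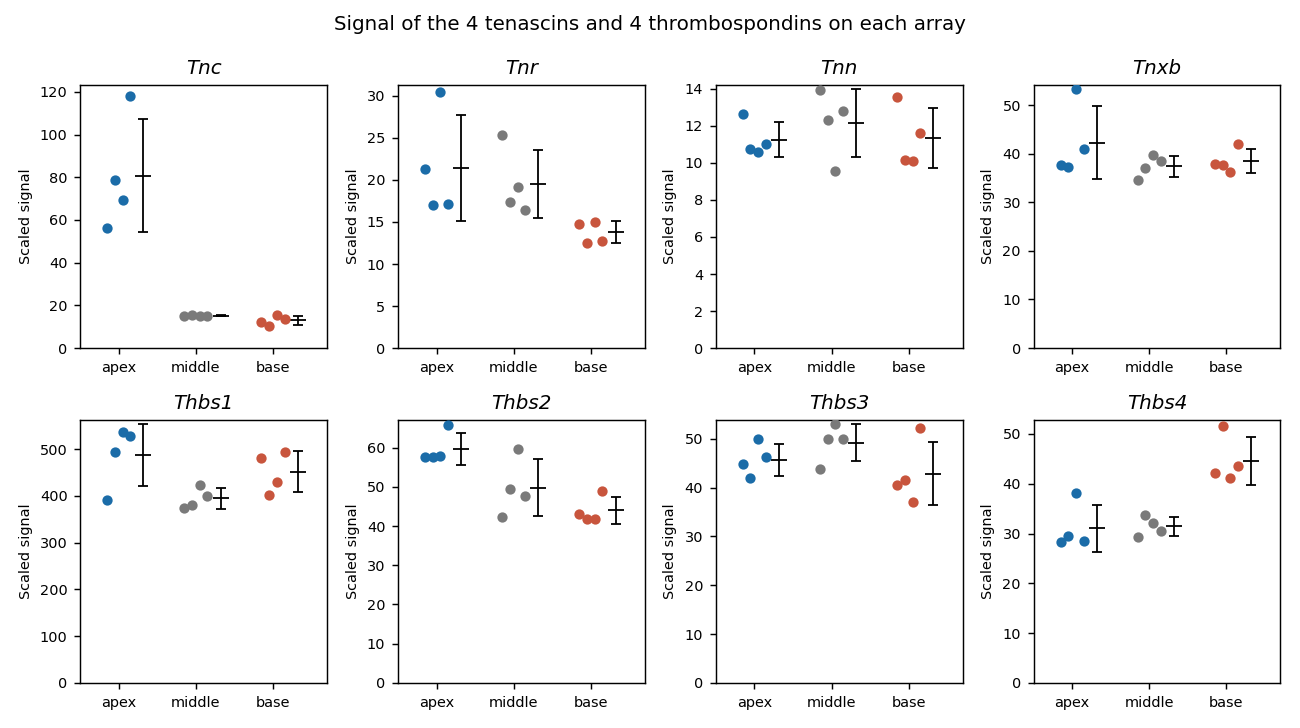
Scaled signal (linear axes from 0) of the 8 genes on each of the 12 arrays, by cochlear turn, with the mean and SD of the 4 arrays of a turn as a bar beside them. Tnc stood at 56.4 or more on every apical array and at 15.6 or less on every other array, and Thbs4 was above 41 on every basal array and below 39 on the others.

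Tnc encodes tenascin C, the hexameric tenascin of developing and remodeling tissue. Its scaled signal was 56.4, 78.9, 69.3 and 117.9 on the apical arrays 1 to 4. On the middle arrays it was 14.9, 15.5, 15 and 15.3, and on the basal arrays 12.2, 10.4, 15.6 and 13.5. All 4 apical arrays were thus above all 8 others, and the middle and basal arrays overlapped. The apical mean was 80.6 ± 26.5 (SD, n = 4), against 15.2 ± 0.251 in the middle and 12.9 ± 2.15 in the basal turn, differences of 2.60 from the basal and 2.36 from the middle turn on the log2 scale. Most Tnc probes were below background outside the apical turn, and the size of these differences depended on how background was treated, at 0.87 and 0.75 with normexp correction and 1.63 and 1.52 with a pseudocount of 16. Middle and basal turns differed by 0.24 (SE 0.19, 95% confidence interval -0.18 to 0.66), which was not significant (limma, adjusted p = 0.38). Apical array 4, the highest for Tnc, also had the highest summed signal of 5 bone markers, 4812 against 1128 to 1711 on the other apical arrays and 1455 to 2874 on the middle and basal arrays. Most of the sum on apical array 4 was the signal of Ibsp (1836) and Col1a1 (1328). Another of these markers, Dmp1, read 1124 there and was higher on every basal array, at 1608 to 1746. Without apical array 4, the difference of Tnc from the basal turn was 2.40 and from the middle turn 2.16.

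The 25 probes of Tnc lie between bases 63620866 and 63681375 of chromosome 4, and all 25 had a higher mean in the apical than in the basal and middle turns. A probe is counted as above background on an array where at least 1 of its spots was scored so. On that score 21 probes were above background on all 4 apical arrays, but only 4 on all middle and 3 on all basal arrays, while 18 of the 25 were above background on no basal array. For such probes the fold is a lower bound, the apical mean against the lowest measurable signal of the basal arrays. The 14 probes above background on all apical and no basal arrays gave bounds of at least 1.76-fold to at least 4.14-fold. Their direction was set by this filter and by the choice of Tnc, so only the size of the bounds is described.

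The log2 difference between apical and basal turns varied along the gene, from 0.71 to 4.00 over the 25 probes. Most basal values lay below background, and this variation was not tested. Probe A_56_P008508, printed above, read 63.0, 110.9, 114.4 and 186.1 in the apical turn and between 5.33 and 17.4 on the other arrays, none of which was above background, so it was at least 4.07-fold higher in the apical than in the basal turn. The next probe toward the 3′ end, A_56_P008509, read 119.3, 158.9, 143.2 and 209.6 in the apical turn and was above background on all 12 arrays, with 81.2 to 99.99 in the middle and 88.4 to 99.9 in the basal turn. Its difference between apical and basal turns was 0.71 on the log2 scale, which is not the same measure as the fold bound of the probe before it. The 2 other probes above background on all 12 arrays, A_56_P008506 and A_56_P008511, gave differences of 1.32 and 1.54. The 3′-most probe, A_56_P008889, was the brightest, with 584 ± 271 in the apical, 91.3 ± 24.3 in the middle and 46.3 ± 31.4 in the basal turn (SD, n = 4). It was above background on all middle arrays and on 3 of 4 basal arrays, so its difference of 3.78 from the basal turn includes a basal value below background. Tnc had too few probes with every spot above background on all arrays for a test of probes against their gene.

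**Figure D2:**
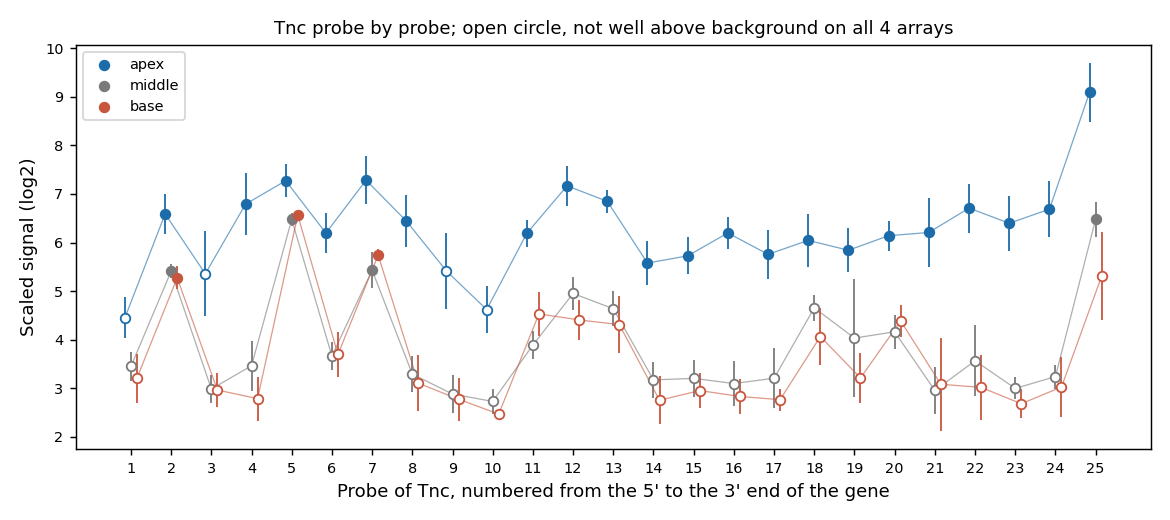
Mean log2 scaled signal of each Tnc probe in the 4 arrays of a turn, with SD as vertical lines, in order from the 5′ to the 3′ end of the gene. Open circles mark turns in which the probe was not well above background on all 4 arrays. Where it was so on no array of the turn, only a bound on a difference is measured. Filled circles mark turns in which the probe was well above background on all 4 arrays, which held for 21 of 25 probes in the apical turn, 4 in the middle and 3 in the basal turn.

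Tnr encodes tenascin R, a component of the perineuronal nets made by glia of the central nervous system. Its signal was 21.3, 17, 30.4 and 17.1 on apical arrays, 25.4, 17.3, 19.1 and 16.4 on middle arrays, and 14.8, 12.6, 15 and 12.7 on basal arrays. Every basal array was below every apical and middle array, while apical and middle arrays overlapped. The apical turn was 1.52-fold above the basal turn, a difference of 0.60 (SE 0.19, 95% confidence interval 0.19 to 1.02, limma adjusted p = 0.026). The middle turn was 0.49 above the basal turn, which did not pass the test (limma adjusted p = 0.090). It passed without apical array 3 (limma adjusted p = 0.033) and with array number as a block (limma adjusted p = 0.034), in a range of 0.033 to 0.96 over 25 alternatives. The Tnr call was a result on dim probes: 11 of 21 Tnr probes were above background on no array, and the 3 that were above background on all 12 arrays differed between apical and basal turns by 0.10 to 0.21 only. Restricted to probes that were above background throughout at least 1 turn, the difference was 0.17 (adjusted p = 0.39), and over 25 alternative settings the adjusted p ranged from 0.0087 to 0.41, with 8 above the threshold, among them those without apical array 1 or 3 or basal array 2 or 4. The summed signal of neuron markers was 24437 to 31941 in the apical, 21911 to 39098 in the middle and 4481 to 20065 in the basal turn, and its part in the Tnr result was not tested.

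Tnn encodes tenascin N (also tenascin W), known from bone and its stem cell niches. Its signal lay between 9.59 and 13.9 on all 12 arrays, with 12 of its 20 probes above background on none, and no comparison passed the test, the apical and basal means being 0.01 apart (95% confidence interval of the difference -0.28 to 0.27). Tnxb encodes tenascin X, which binds fibrillar collagen in loose connective tissue. It read 42.3 ± 7.47 in the apical, 37.4 ± 2.19 in the middle and 38.4 ± 2.47 in the basal turn (SD, n = 4), with all 3 turns overlapping. The apical minus basal difference of Tnxb was 0.13 (95% confidence interval -0.11 to 0.36, limma adjusted p = 0.40). Of its 33 probes with values, 14 were above background on all 12 arrays, and a neighbouring pair of its probes overlaps in sequence.

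Thbs1 and Thbs2 encode the trimeric thrombospondins, which inhibit blood vessel growth and, released by astrocytes, promote synapse formation through the calcium channel subunit encoded by Cacna2d1. All 22 probes of Thbs1 were above background on every array. Its signal was 392, 493, 538 and 527 on apical arrays, 375, 380, 424 and 400 on middle arrays, and 482, 402, 430 and 494 on basal arrays. The arrays overlapped between all turns, although all 22 probes had a lower mean in the middle than in either other turn. Probes of a gene share their samples and are not replicates, and neither the difference between apical and middle turns (0.30, limma adjusted p = 0.086) nor that between middle and basal turns (-0.19, limma adjusted p = 0.21) passed the test. Without apical array 1 the former was 0.40 and passed (adjusted p = 0.023, in a range of 0.023 to 0.50 over 25 alternatives). Apical and basal turns differed by 0.10 (95% confidence interval -0.13 to 0.33).

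Thbs2 was higher in the apical than in the basal turn. It read 57.6, 57.6, 58.0 and 65.9 on apical arrays, 42.4, 49.5, 59.6 and 47.8 on middle arrays, and 43.1, 41.9, 41.9 and 49.0 on basal arrays. The apical arrays were all above the basal arrays, and the middle arrays overlapped both. The apical turn was 1.36-fold higher, a difference of 0.44 (SE 0.098, 95% confidence interval 0.23 to 0.66, limma adjusted p = 0.0041), and 19 of 21 probes had a higher mean in the apical turn. Of the 21 probes, which are not replicates, only 9 were above background on all 12 arrays, and 4 were so on no basal array. Steps to the middle turn did not pass the test, at 0.27 from the apical (limma adjusted p = 0.093) and 0.17 from the basal side (limma adjusted p = 0.23), although the former passed without middle array 3 (0.36, adjusted p = 0.015). The call depended on the scaling: with quantile normalization the difference was 0.21 (limma adjusted p = 0.087), and with scaling to spike-in probes 0.025 (limma adjusted p = 0.88). It also depended on the probe summary, at 0.37 with the median of the probes (limma adjusted p = 0.055). Over 25 alternatives the adjusted p ranged from 0.0013 to 0.88, and 22 kept the call.

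Thbs3 and Thbs4 encode pentameric thrombospondins, of which Thbs4 is known from tendon, muscle and injured nerve. Thbs3 read 45.7 ± 3.30 in the apical, 49.2 ± 3.85 in the middle and 42.8 ± 6.51 in the basal turn (SD, n = 4), with overlapping arrays. No comparison of Thbs3 passed the test, although middle minus basal, 0.21, passed without basal array 4 (0.31, adjusted p = 0.033). Its apical minus basal difference of 0.10 had a 95% confidence interval of -0.12 to 0.33. Only 8 of its 19 probes were above background on all 12 arrays.

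Thbs4 was lower in the apical and middle turns than in the basal turn. It read 28.2, 29.5, 38.1 and 28.6 on apical arrays, 29.4, 33.7, 32.1 and 30.5 on middle arrays, and 42.1, 51.6, 41.2 and 43.5 on basal arrays. All 4 basal arrays were above all 8 others, and the apical and middle arrays overlapped. The basal turn was 1.44-fold above the apical turn, with an apical minus basal difference of -0.53 (SE 0.10, 95% confidence interval -0.76 to -0.30, limma adjusted p = 0.0022), a call kept in 25 of 25 alternatives. Its size ranged over them from -0.22 with normexp correction to -0.94 with scaling to spike-in probes. The middle turn was lower than the basal turn by a similar amount, -0.50 (SE 0.10, limma adjusted p = 0.0077), and apical and middle turns differed by -0.02 (95% confidence interval -0.25 to 0.21). With normexp background correction the middle minus basal difference was -0.14 and was no longer called (adjusted p = 0.12, in a range of 0.0020 to 0.12). Markers of skeletal muscle were also higher in the basal turn for 2 of 5 genes, with a summed signal of 600 to 814 on basal arrays and 460 to 577 on the others. Basal array 2 was the highest of the 12 arrays for Thbs4, for this summed signal and for the muscle marker Acta1. Another muscle marker, Mylpf, was highest on basal array 1. Of 4 tendon markers, 2 were higher in the basal and 1 in the apical turn. The part of muscle or tendon tissue in the Thbs4 result was not tested.

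**Figure D3:**
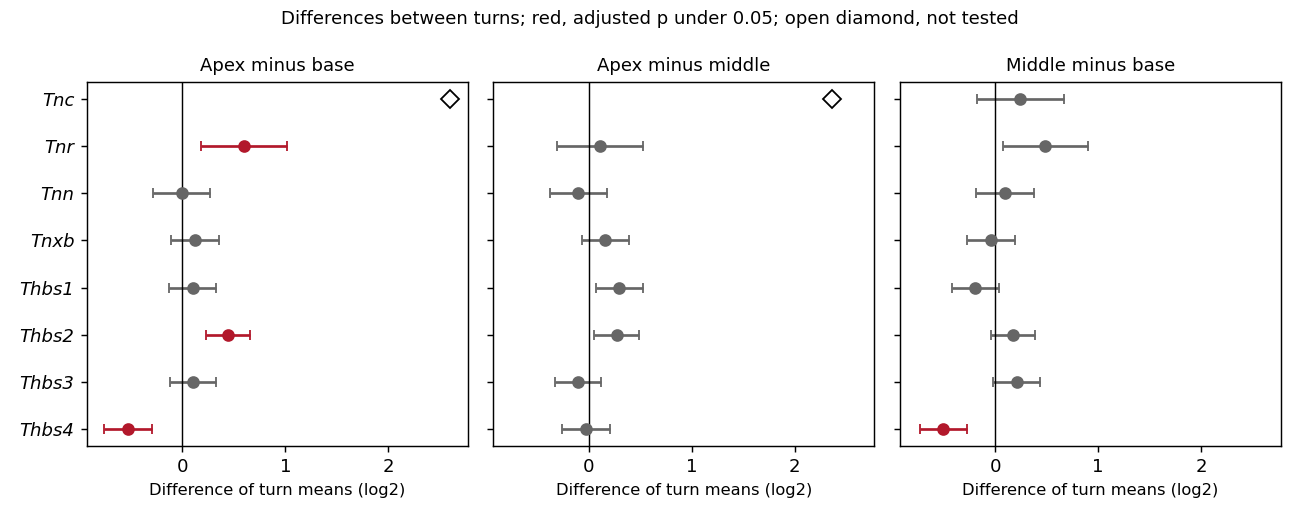
Differences of the turn means of the 8 genes on the log2 scale, with 95% confidence intervals from limma that are not adjusted for the number of genes. Red points passed the test at an adjusted p of 0.05, grey points did not, and the open diamonds are Tnc against the apical turn, at 2.60 and 2.36, which was not tested.

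The exon probes allowed a further question, whether part of a gene shifted between turns against the rest of the same gene. Each probe with every spot well above background on all 12 arrays was compared with the mean of the other such probes of its gene, a measure from which the gene's own level is removed. Of 63 member probes in 6 genes, 7 shifted between apical and basal turns (11.1%), against 17.6% of all 115763 probes tested. Between apical and middle turns 0 of 63 passed in limma, with 13 at an unadjusted p below 0.05, against 1.19% of all probes, and between middle and basal turns 2 of 63 passed, against 2.15%. Of the 7 probes, 4 belonged to Thbs4 and 1 each to Thbs2, Tnxb and Thbs1. Without basal array 2, 4 of 63 member probes were called between apical and basal turns, beside 10.9% of all probes.

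In Thbs4, 14 of 19 probes had a higher mean in the basal than in the apical turn. Among the 10 probes above background on all apical and basal arrays, the 5 at the 3′ end of the gene differed by -0.86 to -0.99 and the other 5 by -0.38 to 0.14. The 3 probes at the 3′ end, A_56_P096569, A_56_P096570 and A_56_P096571, were lower in the apical turn relative to the other probes of the gene by -0.48, -0.45 and -0.61 (limma adjusted p = 0.0022, 0.0098 and 0.0073), and these calls held in 16 of 16 alternatives. Probe A_56_P096569, printed above, read 48.1, 51.9, 52.8 and 55.0 in the apical, 53.3, 60.2, 59.6 and 53.8 in the middle and 86.4, 119.8, 86.5 and 92.9 in the basal turn. The 3′-most probe, A_56_P096571, read 189 ± 25.5, 196 ± 24.9 and 380 ± 86.1 in the same order (SD, n = 4), so that its basal signal was 1.99-fold the apical signal. Against this, probe A_56_P096558 in the 5′ part read 142 ± 19.8, 130 ± 8.85 and 140 ± 11.8 and differed by 0.01 between apical and basal turns. Relative to the other probes it shifted by 0.56 toward the apical turn (limma adjusted p = 0.040), a call lost in 11 of 16 alternatives. Since each probe is set against the others, a shift of the 3′ probes moves the reference of the rest the opposite way. Between middle and basal turns A_56_P096569 and A_56_P096571 shifted likewise, by -0.42 (limma adjusted p = 0.017) and -0.64 (limma adjusted p = 0.023), calls that were lost without basal array 2 (adjusted p = 0.058 and 0.066) and in 4 of 16 alternatives each.

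**Figure D4:**
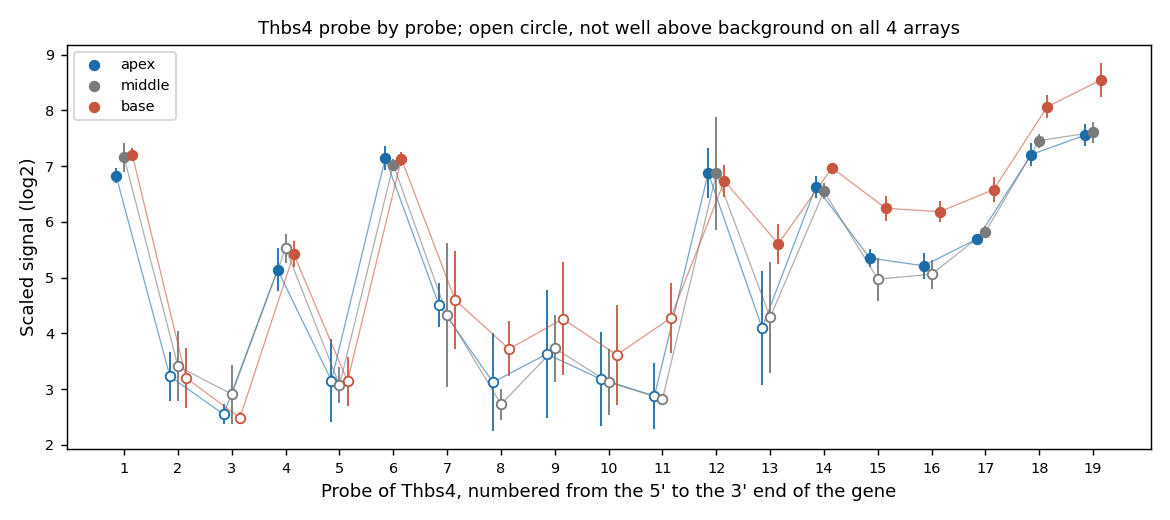
Mean log2 scaled signal of each Thbs4 probe in the 4 arrays of a turn, with SD as vertical lines, in order from the 5′ to the 3′ end of the gene. The basal turn lies apart from the other turns at the 3′ end, with 380 against 189 in the apical turn at probe 19, while at probe 6 the turns lie together, at 140 and 142.

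Single probes of the other genes shifted as well. Thbs2 probe A_56_P106111 was the brightest of its gene, at 993 ± 70.3 in the apical, 1057 ± 70.2 in the middle and 1179 ± 85.7 in the basal turn (SD, n = 4). It was lower in the apical turn while most Thbs2 probes were higher, a shift of -0.57 against the other probes (SE 0.10, limma adjusted p = 0.0037) that held in 16 of 16 alternatives. Tnxb probe A_56_P107383 shifted by -0.40 (limma adjusted p = 0.019) and the 3′-most Thbs1 probe, A_55_P2017636, by -0.26 (limma adjusted p = 0.037). These calls were lost in 4 and 10 of 16 alternatives.

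Genes whose products work with the tenascins and thrombospondins were followed as 4 lists of 57 genes in all. Of the 17 receptors and cell surface partners, 10 differed between apical and basal turns, 6 higher in the apical and 4 in the basal turn, and none reached 2-fold. Quantile normalization gave 5 called receptors, and 6 were called without apical array 1 or basal array 2. Over the 25 alternatives, 6494 to 14310 of all genes were called between these turns. Ptprz1, a receptor phosphatase that binds tenascins, was 0.64 higher in the apical turn (SE 0.11, limma adjusted p = 0.00080), and Cacna2d1, the thrombospondin receptor named above, was 0.45 higher (SE 0.072, limma adjusted p = 0.00055). With scaling to spike-in probes neither passed, at 0.22 for Ptprz1 and 0.035 for Cacna2d1 (adjusted p = 0.19 and 0.80). Cntn1, a neuronal adhesion protein and tenascin R ligand, was 0.50 higher (limma adjusted p = 0.044), which 11 of 25 alternatives lost. Itga8, an integrin subunit for tenascin C, was lower in the apical turn by -0.58 (SE 0.061, limma adjusted p = 4.1e-05). The median of the 17 differences was 0.10, against -0.04 for all genes.

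Of the 14 matrix partners, 10 differed between apical and basal turns, 7 higher in the apical and 3 in the basal turn, with a median difference of 0.49. The shares called were 71.4% here and 58.8% among the receptors, beside 39.2% of all genes, and nothing particular to a list was tested. Fn1, encoding fibronectin, read 622 ± 81.9 in the apical, 250 ± 28.9 in the middle and 166 ± 7.85 in the basal turn (SD, n = 4), a difference of 1.90 between the ends (SE 0.10, limma adjusted p = 4.7e-07). Hapln1, a link protein that ties hyaluronan to proteoglycans, was 1.84 higher in the apical turn (SE 0.32, limma adjusted p = 0.00095). Acan, the large proteoglycan aggrecan, went the other way, at 132 ± 38.4 in the apical, 204 ± 29.2 in the middle and 806 ± 93.1 in the basal turn (SD, n = 4), a difference of -2.65 (SE 0.19, limma adjusted p = 2.9e-06). Dcn, the collagen-binding proteoglycan decorin, also fell from base to apex, by -1.42 (SE 0.13, limma adjusted p = 1.6e-05). Just below 2-fold and less, the microfibril gene Fbn1 (0.997), the fibulin gene Fbln1 (0.78) and the collagen gene Col5a1 (0.54) were higher in the apical turn. Postn, encoding periostin, passed the test in the same direction (limma adjusted p = 0.041), but its mean signals of 20.1 in the apical and 11.97 in the basal turn lay near background, with as few as 5% of its 20 probes above it on an array, so its size was not settled. Its difference of 0.65 was 0.36 without apical array 4. The calls of Postn and Col5a1 were lost in 16 and 2 of 25 alternatives.

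Of the 15 other matricellular genes, 10 differed between apical and basal turns (66.7%, beside 39.2% of all genes), 4 higher in the apical and 6 in the basal turn, with a median of -0.09. Nov, a member of the CCN family, was the gene of this list past 2-fold, at 292 ± 60.3 in the apical, 118 ± 15 in the middle and 114 ± 27.9 in the basal turn (SD, n = 4), a difference of 1.37 (SE 0.19, limma adjusted p = 0.00025). Smoc2 was 0.73 higher in the apical turn, while the CCN gene Wisp1 (-0.99), Sparc (-0.93) and Spp1, which encodes osteopontin (-0.72), were lower there. Comp, the remaining thrombospondin gene, differed by -0.09 and was not called (limma adjusted p = 0.67).

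Of the 11 genes of TGF-beta ligands, receptors and latent binding proteins, 8 differed between apical and basal turns (72.7%, beside 39.2% of all genes), 5 higher in the apical and 3 in the basal turn, with a median of 0.16, and 5 were called when arrays were scaled to their median. The latent binding proteins Ltbp1 and Ltbp2 were higher in the apical turn by 0.89 (SE 0.054, limma adjusted p = 1.0e-06) and 0.85 (SE 0.072, limma adjusted p = 9.7e-06). The ligand Tgfb1 and the receptor Tgfbr2 were lower there, by -0.59 (SE 0.10, limma adjusted p = 0.0010) and -0.57 (SE 0.096, limma adjusted p = 0.00076). Each of the 4 lists thus held called genes in both directions.

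**Figure D5:**
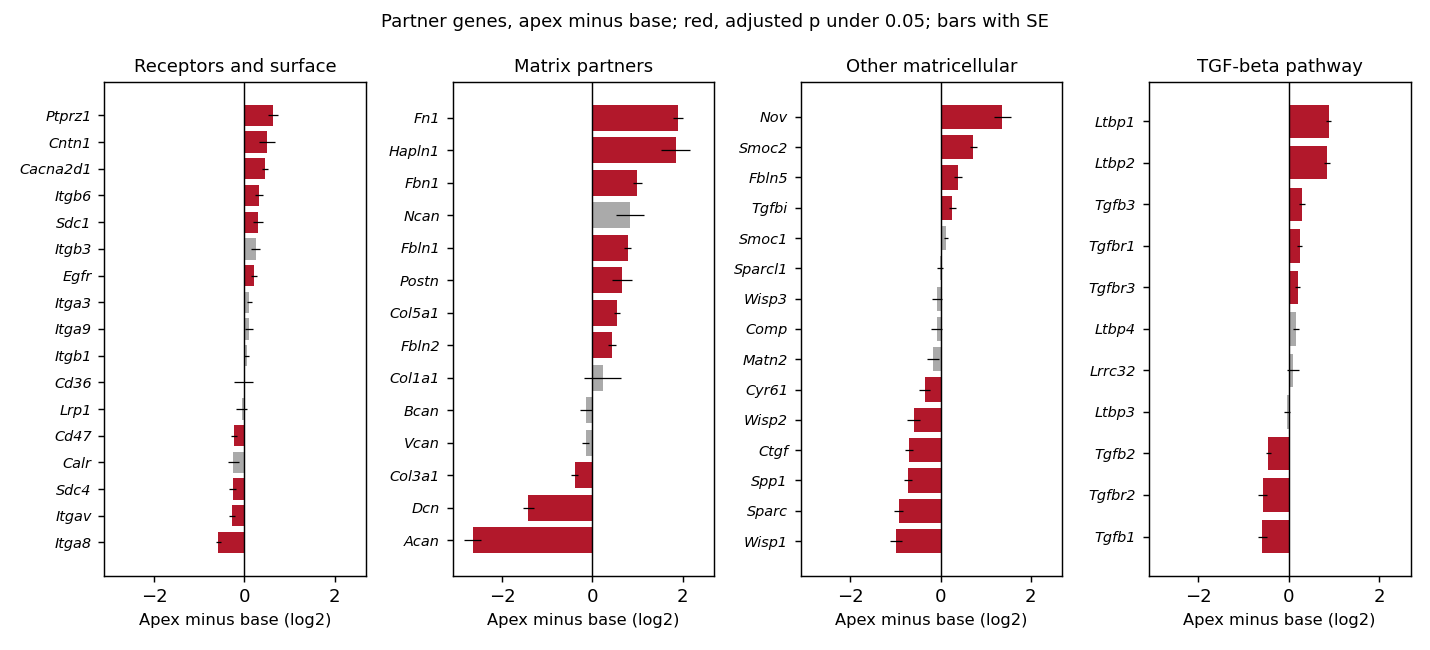
Apical minus basal difference (log2 scale) with its SE for the 57 partner genes, as 4 lists, with genes that passed the test in red. Called genes point both ways in each list, and Acan at -2.65 and Fn1 at 1.90 lie farthest from 0.

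Among the 13121 genes with at least 50% of their probes well above background on every array, the 5 whose pattern over the 12 arrays was most like that of Tnc were Sfrp1, Ecel1, Krt19, Fn1 and Scg2. Likeness was the root mean square difference of their mean-centred log2 values from those of Tnc, between 0.42 and 0.55. They encode a secreted Wnt inhibitor, an endopeptidase, a keratin, fibronectin and secretogranin II. All 5 were highest in the apical turn, as the choice fixes, with apical minus basal differences of 2.56, 2.80, 2.01, 1.90 and 2.15. Their middle minus basal differences were 0.58 to 1.01, beside 0.24 for Tnc, a gap that was not tested. Tnc itself would not pass the filter on probes, with 4 to 7 of its 25 probes above background on middle and 4 to 5 on basal arrays. Its 0.24 was thus read near background, where a difference can be understated, so the gap cannot be read as a difference in pattern. Over the 3 turn means in place of the 12 arrays, only Ecel1 stayed among the closest 5, joined by Ear2, S100a9, S100a8 and Rya3.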

How the data were processed

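The authors deposited, for 12 single-color Agilent exon arrays (3 turns, 4 arrays each), the intensity of every spot as Agilent Feature Extraction wrote it, version 10.7.3.1 per the file headers. The processed signal is background-subtracted and detrended by that software, with no normalization between arrays. The authors' deposited value table of the same intensity values served as an alternative. Probe positions are on mm9 (NCBI37), and exon numbers were not analysed here.

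Groups came from the labels. Of 180880 spots per array, 7914 controls and the spots flagged on any array were left out, which removed 119 probes, 1 of them from Tnxb. Signals were divided by each array's 75th percentile and multiplied by a common factor, log2 transformed, and spots were averaged per probe and probes per gene name. All 12 arrays entered limma 3.58.1 (R 4.3.3) with turn as the factor and Benjamini-Hochberg adjustment over 19505 genes or 115763 probes. The probe test needs 3 or more probes per gene. Scripts were tested on simulated data. Array number limits the precision.

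The members and lists were chosen with earlier results of these data known. Named are all members, partner genes called with 2-fold or more, up to 4 further called genes per list by size of the apical minus basal difference, the 5 genes closest to Tnc and every member probe called against its gene. Alternatives covered scaling, background correction, a pseudocount of 16, probe summaries and filters, each array left out, a replicate block and other tests. Array numbers were not used as pairs.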

Additional observations from a re-analysis of the deposited data

Results flagged for a closer look

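Of the 24 groups of 4 arrays formed by the 8 genes and 3 turns, 2 held an array far from the others, where chance flags about 1 in 20 groups. For Thbs2, apical array 4 read 65.9 against 57.6 to 58.0 on the other apical arrays, a gap of 0.947 of the group's range. For Thbs4, apical array 3 read 38.1 against 28.2 to 29.5, a gap of 0.857 of the range.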

How the results depend on the processing

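There were 25 alternatives per gene and 16 per probe. Thbs4 stayed called lower in the apical than in the basal turn in 25 of 25 (-0.94 to -0.22). The direction of Tnc was set by its choice on apical signal, so only the size of its differences is described. Over the 25 alternatives, Tnc was 0.87 to 3.02 higher in the apical than in the basal turn. Against the middle turn it was 0.75 to 2.63 higher. With arrays scaled to their median, 3542 genes were called between apical and middle turns, 5 TGF-beta genes were called, and the percentage of called genes higher in the first turn was 26.5, 18.7 and 38.2 (apical minus basal, apical minus middle, middle minus basal), against 44.9, 36.7 and 55.8 in the main setting. Quantile normalization gave Tnr 0.40 and Thbs2 0.21 between apical and basal turns, 1 member called, 5 receptors called and 45.0% of called genes higher in the middle than in the basal turn. Scaling to the spike-in probes moved the median of all genes from -0.04, -0.07 and 0.04 to -0.45, -0.23 and -0.22, and gave Tnc 2.18, Tnr 0.18, Tnn -0.42 (called, adjusted p = 0.0032) and Thbs2 0.025 between apical and basal turns, and Thbs1 -0.45 (called), Ltbp2 -0.021 and 2 members called between middle and basal turns. It called 14310, 6158 and 7759 genes, of which 6.41%, 4.27% and 10.4% were higher in the first turn. Normexp background correction gave Tnc 0.87 and 0.75, Tnr 0.12, Thbs4 -0.14 between middle and basal turns with 0 members called there in limma (2 at an unadjusted p below 0.05), and 313 genes past 2-fold between apical and basal turns. It called 1 of 63 member probes between middle and basal turns, beside 3.34% of all probes. A pseudocount of 16 gave Tnc 1.63 and 1.52 and 574 genes past 2-fold. The median of the probes gave Tnc 3.02 and Thbs2 0.37 (no longer called) between apical and basal turns, and Col5a1 -0.030 between middle and basal turns. Only probes above background gave Tnr 0.17. Testing all probes called 14, 4 and 0 of 180 member probes in limma (25 at an unadjusted p below 0.05 in the last), beside 10.4%, 0.24% and 0.95% of 159900 probes. Against the median of the other probes, 4 and 1 of 63 member probes were called in the comparisons with the apical turn, beside 14.8% and 0.98% of all probes. Over the 3 turn means, 1 of the 5 genes closest to Tnc was shared. The cause of these changes was not tested.

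Same-numbered arrays of different turns had a mean correlation of their deviations of 0.095 (-0.04 to 0.23, with 6 of 12 pairs above 0.1). Arrays of different numbers had a mean of -0.03 (-0.26 to 0.25, with 2 of 36 pairs above 0.1). In addition, 4 of 12 arrays correlated best with their own number in both other turns. Same-numbered arrays were thus somewhat more alike, but the labels do not tie numbers to mice, so the main fit did not pair them. The replicate block gave Tnr 0.49 between middle and basal turns (called, adjusted p = 0.034) and 2 members called there. It called 1 of 63 member probes between apical and middle turns, beside 0.78% of all probes. Leaving out each array in turn gave Tnr 0.42 to 0.70 between apical and basal turns, with the call lost without apical array 1 or 3 or basal array 2 or 4, and 0.36 to 0.57 between middle and basal turns, where Tnr was called without apical array 3. Likewise Thbs1 and Thbs2 between apical and middle turns were 0.24 to 0.40 and 0.20 to 0.36, called only without apical array 1 and middle array 3, and Thbs3 between middle and basal turns was 0.14 to 0.31, called only without basal array 4. These settings gave 6 to 10 receptors called (6 without apical array 1 or basal array 2), 965 (without apical array 2) to 3536 (without middle array 3) genes called between apical and middle turns with 27.0% to 47.7% higher in the apical turn and 0 to 1 members called, and 2656 (without basal array 2) to 4755 genes called between middle and basal turns with 53.2% to 66.6% higher in the middle turn and 1 to 2 members called. Member probes called were 4 (without basal array 2) to 8 between apical and basal turns, where 12609 to 20047 of all probes were called, and 0 (in limma without basal array 2, with 14 at an unadjusted p below 0.05) to 3 (without basal array 3) between middle and basal turns. Of all probes, 0.92% were called between middle and basal turns without basal array 2 and 3.84% without basal array 3. Most Tnn, Tnr and Tnc probes outside the apical turn lay near background, which limits the size of their differences. Without a fold limit, the one-way test over the 3 turns called 2 members, Thbs2 and Thbs4. With a limit of 2-fold it called 0 of the members tested and 882 of all genes.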

Other observations

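Other cell type markers also differed by turn. The 5 markers of spiral ligament fibrocytes summed to 294178 to 324933 on apical, 394119 to 443368 on middle and 562986 to 628263 on basal arrays. All 5 Schwann cell markers were higher in the apical than in the basal turn, 3 of 4 strial marginal cell markers, 4 of 5 melanocyte and intermediate cell markers and 3 of 4 macrophage markers were lower, and 1 of 4 endothelial markers was higher and 2 lower. Of 3 cartilage markers measured, 1 was higher in the apical and 2 in the basal turn, and of 5 bone markers 1 was lower in the apical turn. The summed signal of 4 red blood cell markers overlapped between turns, from 21465 to 60444 on apical, 41220 to 71820 on middle and 28642 to 75707 on basal arrays, and so did that of 4 platelet markers, from 639 to 829, 787 to 958 and 682 to 861.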
